A study of Arabidopsis thaliana with 30 samples.

Results

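The comparison described here is that of heated Arabidopsis thaliana seedlings of the libraries labelled smxl4 smxl5 with heated seedlings of the wild type Col-0, across all genes. Its members are the 6 libraries, of 30 in the series, whose labels give 85 min of heat stress and 1 of these genotypes, 3 libraries in each group; the series' design text gives the temperature as 44 °C. The heated seedlings were 7 days old, had grown on agar plates at 22 °C, and were heated by immersing the sealed plates in a water bath. The control libraries of both genotypes (3 each) come from seedlings of the same age without heat, and are used only to set the difference after heat beside the difference without it. The labels give the mutant combination with no allele names, whole seedlings with no tissue separated, and no number of seedlings per library.

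SMXL proteins are nuclear relatives of ClpB-type ATPases. SMXL6, SMXL7 and SMXL8 are degraded when strigolactone is perceived, whereas SMXL4 and SMXL5 lack the sequence that marks them for this degradation and are known for promoting the formation of phloem, the tissue that exports sugar from leaves. Heat shock factors are transcription factors that bind heat shock elements in promoters, and HSFA2 is a heat-induced member that prolongs the response. By its title, the study is about SMXL4/5 and HsfA2 acting on one another, and the comparison asks which transcripts differ between the genotypes once heat has been given.

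Values are FPKM (fragments scaled to transcript length and to the mapped total of the library) as the authors deposited them. The 6 heated libraries summed to between 1014462 and 1099793 FPKM and had between 23996 and 24148 genes above 0. An estimate from the smallest steps between values puts 14.2 to 15.3 fragments behind 1 FPKM in a gene of 1 kb, so values well below 1 FPKM rest on few fragments. One library stood apart before any comparison. Across genes (which are not independent replicates), Col-0 heat replicates 1 and 3 correlated at 0.985 on the log2 scale, but replicate 2 correlated with them at 0.976 and 0.979 and with the libraries labelled smxl4 smxl5 at 0.968 to 0.971, where Col-0 replicates 1 and 3 reached 0.953 to 0.964. The heated libraries labelled smxl4 smxl5 correlated with one another at 0.979 to 0.984, so the values of Col-0 replicate 2 within its group were close to that range. It stood apart more clearly by gene list. Col-0 heat replicate 2 was the highest of the 3 Col-0 heat libraries in 18 of 18 small heat shock protein genes. The same held for 21 of 24 large chaperone genes and 13 of 15 anthocyanin enzyme genes. It was the lowest in 12 of 12 day and evening clock genes and in 13 of 14 cold and early stress factor genes. Over all 21531 genes kept it was the highest in 8406 and the lowest in 6765. Counts below are therefore also given without it wherever that moves them by over 1.5 times.

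The targeted genes were examined first. SMXL4 had 0.803, 1.15 and 1.29 FPKM in the heated libraries labelled smxl4 smxl5, against 2.12, 2.15 and 2.39 FPKM in Col-0 heat libraries, and was lower (a log2 change of −0.64 ± 0.12 SE, adjusted p = 0.000192). SMXL5 had 2.97, 2.86 and 3.32 FPKM in the heated libraries labelled smxl4 smxl5, against 2.84, 3.38 and 3.14 FPKM in Col-0 (a log2 change of −0.02 ± 0.09 SE, adjusted p = 0.871). The 2 groups overlapped for SMXL5, so a lower gene-level transcript of this gene was not seen in the libraries labelled smxl4 smxl5. Without heat, SMXL5 had 14.6, 15.4 and 15.0 FPKM in the libraries labelled smxl4 smxl5 and 4.69, 4.97 and 4.06 FPKM in Col-0. SMXL4 was higher there too, at 3.39, 3.43 and 2.86 FPKM against 1.76, 2.06 and 1.97 FPKM in Col-0 (a log2 change of 0.53, adjusted p = 0.00132). A value per gene cannot show where in the gene the fragments fell, and the genotype is therefore called by its label. Of the 8 SMXL family genes, SMXL8 was also lower, at 0.747, 0.614 and 0.8 FPKM against 1.41, 1.02 and 1.08 FPKM in Col-0 (adjusted p = 0.0264, or 0.108 when only the 6 heated libraries were fitted), and the 2 lower members were 1 without smxl4 smxl5 heat replicate 2.

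Over all genes, limma called 4120 of 21531 genes higher (19.1%) and 3699 lower (17.2%) in heated libraries labelled smxl4 smxl5, 36.3% in all at an adjusted p under 0.05. These shares are the background against which each count of genes below is to be read, and the median log2 change of all genes kept was 0.01. Without Col-0 heat replicate 2 the counts were 4326 (20.1%) and 3802 (17.7%), 37.8% in all, and 6977 of the 7819 called genes (89.2%) were called in the same direction. A fit to the 6 heated libraries alone, named the 6-library fit from here on, found 2145 higher (11.2%) and 1922 lower (10%) of 19172 genes, 21.2% in all. The 3 libraries of each group did not overlap for 8612 genes (40%).

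By change on the log2 scale, the 12 largest rises among the genes that could be named were CYP82C4, IRT1, FRO2, BHLH100, S8H, MIR157c, DFR, bHLH38, LDOX, FEP1, UF3GT and ABR (AT3G02480). Of these, CYP82C4, IRT1, FRO2, BHLH100, S8H, bHLH38 and FEP1 are in the lists of iron genes, and DFR, LDOX and UF3GT in the list of anthocyanin enzymes. The 12 largest falls were RbcX1, STP1, GRXC11 (AT3G62950), SEN1, ASN1, PDF2.1, DRM2 (AT2G33830), HSPRO2, CCL, BT5, MEE14 and WCRKC1. All 24 were also called in the 6-library fit, which reuses the libraries by which they were chosen and is no independent support. RbcX1, a chaperone for Rubisco assembly, had 13.4, 6.37 and 4.49 FPKM in the libraries labelled smxl4 smxl5, against 143, 31.6 and 115 FPKM in Col-0 (a log2 change of −3.29 ± 0.38 SE, adjusted p = 7.59e-07), a difference of 12-fold between the means. Among the 3 Col-0 libraries, replicate 2 was by far the lowest for RbcX1. No overlap between the groups was a condition for naming any of the 24, so it is no separate support for them. GRXC11, a glutaredoxin, had 0.831, 0.996 and 1.55 FPKM, against 22.3, 15.1 and 15.5 FPKM in Col-0 (a log2 change of −3.12, adjusted p = 8.8e-10), and no library lay near the other group. DRM2, a dormancy-associated gene, had 96.6, 73.5 and 68.8 FPKM, against 787, 255 and 625 FPKM in Col-0. WCRKC1, a plastid thioredoxin, had 22.5, 12.1 and 8.32 FPKM, against 114, 53.5 and 90.7 FPKM in Col-0. ABR had 24.4, 39.5 and 166 FPKM, against 8.42, 8.21 and 4.89 FPKM in Col-0 (adjusted p = 6.56e-05), with replicate 3 far above the other libraries labelled smxl4 smxl5. MIR157c, the gene of a microRNA precursor, had 30, 14.5 and 25 FPKM, against 0, 6.76 and 0 FPKM in Col-0 (adjusted p = 0.0276). MIR157c is listed at 0 in 2 of the Col-0 libraries, and it was not called in 5 of the alternative fits (adjusted p from 0.0619 to 0.113).

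**Figure D1:**
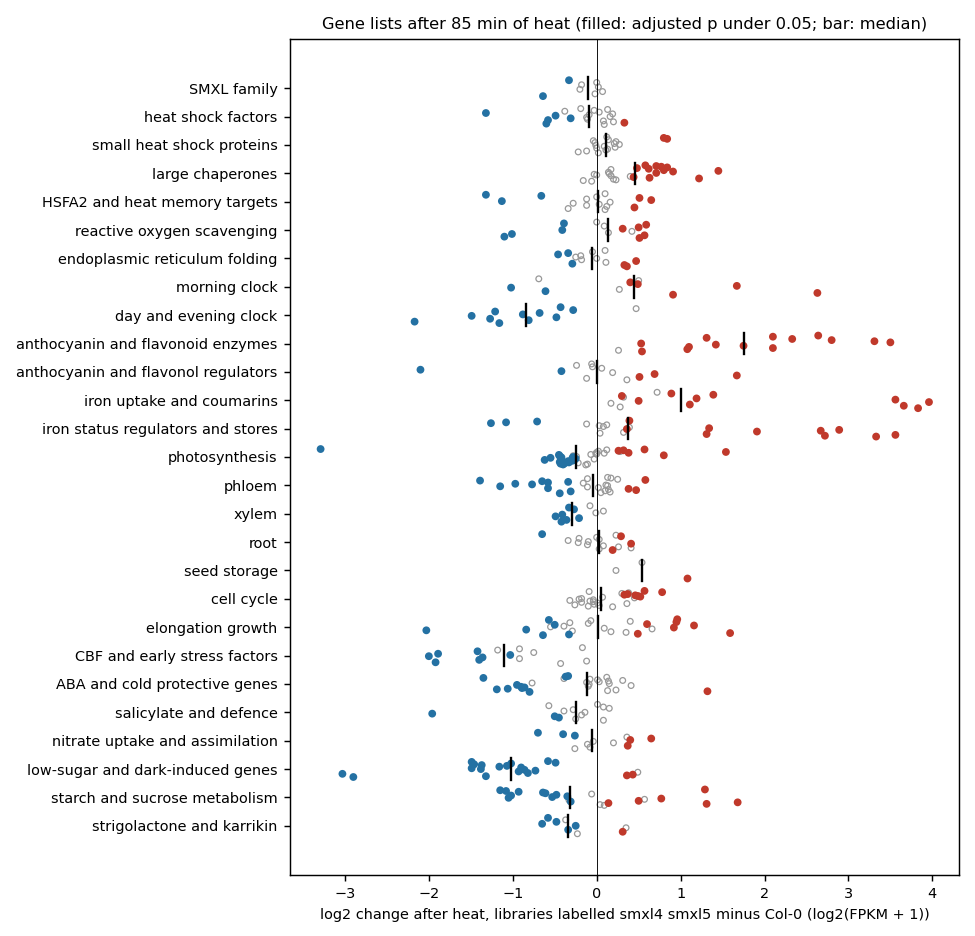
Log2 change after heat (x axis, libraries labelled smxl4 smxl5 minus Col-0, on the log2(FPKM + 1) scale) of every measured gene in 27 lists (y axis). Filled points passed an adjusted p of 0.05 (red higher, blue lower), open points did not, and the bar is the list's median; iron uptake, anthocyanin enzymes and large chaperones lie to the right, and low-sugar genes, the day and evening clock and cold and early stress factors to the left.

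Iron uptake genes were higher in the libraries labelled smxl4 smxl5. Plants such as Arabidopsis acquire iron by releasing coumarins that mobilise it, reducing it at the root surface and importing it, under the control of bHLH transcription factors that are switched on by iron shortage. Of 14 uptake and coumarin genes measured, 10 rose and 0 fell, with a median log2 change of 1.00 (12 rose without Col-0 heat replicate 2). All 14 log2 changes were positive.

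IRT1, the iron transporter of the root epidermis, had 37.1, 60.5 and 76.0 FPKM in the heated libraries labelled smxl4 smxl5, against 4.27, 5.87 and 0.742 FPKM in Col-0 (a log2 change of 3.83 ± 0.42 SE, adjusted p = 5.18e-07). FRO2, the ferric reductase that works beside it, had 16.3, 29.1 and 35.3 FPKM, against 0.998, 1.97 and 0.579 FPKM in Col-0 (a log2 change of 3.66, adjusted p = 5.32e-09). The means differed 16.0-fold for IRT1 and 22.7-fold for FRO2. Both genes are among the largest rises, for which no overlap between the groups was a condition. CYP82C4, an enzyme of sideretin synthesis, had 25.3, 49.4 and 55.8 FPKM, against 1.21, 5.25 and 0.456 FPKM in Col-0 (a log2 change of 3.96, adjusted p = 2.12e-07). S8H, which makes fraxetin from scopoletin, had 3.86, 17.0 and 20.3 FPKM, against 0, 0.0966 and 0.0459 FPKM in Col-0 (adjusted p = 1.66e-08). In both coumarin genes replicate 1 was the lowest of the libraries labelled smxl4 smxl5. MYB10, a regulator of the coumarin branch, rose as well, at 7.19, 6.44 and 7.25 FPKM against 1.80, 2.44 and 1.91 FPKM in Col-0. F6'H1, which opens coumarin synthesis, rose by 0.50 on the log2 scale (adjusted p = 0.00835, or 0.0647 in the 6-library fit), while IRT2, the proton pump gene AHA2, the exporter gene ABCG37 and NAS2 did not pass (adjusted p from 0.0576 to 0.119).

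Among the regulators of this response, FIT, the master bHLH factor of uptake, had 9.1, 12 and 13.3 FPKM, against 5.85, 4.49 and 3.95 FPKM in Col-0 (a log2 change of 1.11, adjusted p = 2.69e-05). Its partners of the bHLH Ib group were nearly absent in Col-0. BHLH38 had 8.35, 9.01 and 28.0 FPKM in the libraries labelled smxl4 smxl5, against 0.422, 0.409 and 0.324 FPKM in Col-0 (a log2 change of 3.33, adjusted p = 2.56e-06). BHLH39, BHLH100 and BHLH101 rose by 2.72, 3.56 and 1.31 on the same scale, BHLH101 with an adjusted p of 0.0583 in the 6-library fit. FEP1, FEP2 and FEP3, small peptides that act upstream of the bHLH Ib genes, rose too. FEP1 had 8.44, 5.09 and 21.2 FPKM, against 1.01, 0.229 and 0.263 FPKM in Col-0 (a log2 change of 2.89, adjusted p = 2.97e-05). In BHLH38, BHLH39, BHLH100, BHLH101 and all 3 FEP genes, replicate 3 was the highest of the libraries labelled smxl4 smxl5. Of the 20 iron status regulators and stores, 10 rose and 3 fell (median log2 change 0.38). The 3 that fell were VTL1, VTL2 and VTL5, members of the vacuolar iron transporter-like family; VTL1 had 4.35, 3.5 and 3.56 FPKM, against 9.24, 12 and 10.3 FPKM in Col-0 (adjusted p = 3.01e-07). The ferritin genes FER1 to FER4, whose products store iron, did not pass (adjusted p from 0.687 to 0.908), nor did BTS, which represses the response, and PYE, a bHLH regulator of it (adjusted p = 0.233 and 0.901). Without heat, 12 of the 14 uptake genes and 10 of the 20 status genes were higher. Fewer cells of a type and less RNA per cell cannot be told apart in whole-seedling libraries. Of 16 root marker genes 3 were higher (1 without smxl4 smxl5 heat replicate 3) and 1 lower, beside 19.1% and 17.2% of all genes. Their summed level was 86.7 to 93.7 FPKM in the libraries labelled smxl4 smxl5 and 84.3 to 94.5 FPKM in Col-0.

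The anthocyanin and flavonoid pathway was higher at nearly every enzyme. Its enzymes turn phenylalanine into flavonols and, through later steps, into the red and purple anthocyanins that seedlings make under strong light, cold or sugar excess. Of 15 enzyme genes 14 rose and 0 fell, with a median log2 change of 1.75, and their summed level was 823, 1172 and 1684 FPKM in the libraries labelled smxl4 smxl5, against 303, 432 and 312 FPKM in Col-0.

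At the entry, PAL1 rose by 0.54 on the log2 scale (adjusted p = 0.00277, or 0.0604 in the 6-library fit) and PAL2 did not pass (adjusted p = 0.0772). CHS (listed as TT4), chalcone synthase, the first committed enzyme, had 356, 466 and 648 FPKM, against 90.6, 163 and 90.4 FPKM in Col-0 (a log2 change of 2.1, adjusted p = 1.23e-07). CHI (listed as TT5) rose by 1.1 and the flavonol synthase gene FLS1 by 0.53, with overlapping groups (adjusted p = 0.0785 in the 6-library fit). The branch to anthocyanin came next. DFR, dihydroflavonol reductase, had 122, 182 and 307 FPKM, against 9.27, 39.3 and 10.5 FPKM in Col-0 (a log2 change of 3.50 ± 0.40 SE, adjusted p = 7.62e-07). LDOX, which forms anthocyanidin, had 40.8, 73.0 and 123 FPKM, against 4.16, 10.5 and 5.6 FPKM in Col-0 (a log2 change of 3.31, adjusted p = 2.14e-07). In both genes, Col-0 heat replicate 2 was the highest of its group and replicate 3 the highest of the libraries labelled smxl4 smxl5. Their groups did not overlap, which was a condition for naming them among the largest rises. Without heat 12 of the 15 enzyme genes were higher. The glycosyltransferase gene UF3GT rose by 2.80 and GSTF12 (TT19), a glutathione transferase needed to bring anthocyanin to the vacuole, by 2.64.

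Among 12 regulators of the pathway 3 rose and 2 fell (median log2 change 0.00), close to the shares over all genes (19.1% higher and 17.2% lower). TT8, a bHLH factor of the activating complex, had 3.08, 4.37 and 6.51 FPKM, against 0.497, 0.767 and 0.94 FPKM in Col-0 (a log2 change of 1.67, adjusted p = 1.7e-06). EGL3, its relative, and MYB111, an activator of flavonol genes, rose by 0.69 and 0.51. MYBL2, a repressor of anthocyanin synthesis, had 36.1, 25.1 and 23.0 FPKM, against 132, 104 and 131 FPKM in Col-0 (a log2 change of −2.1 ± 0.18 SE, adjusted p = 1.19e-08). TTG1, the WD40 member of the activating complex, fell by 0.42. PAP1, the MYB activator often raised by sugar, had 0.391, 0.705 and 1.11 FPKM, against 0.682, 0.0659 and 0.314 FPKM in Col-0 (adjusted p = 0.348), with overlapping groups at a level near 1 FPKM.

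**Figure D2:**
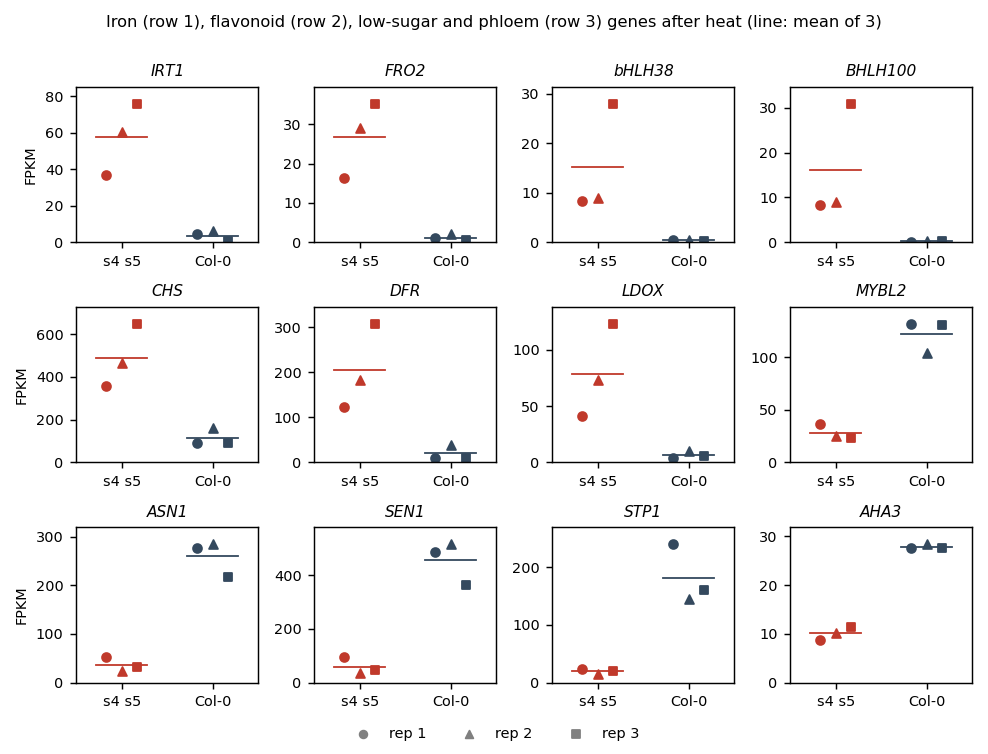
FPKM per library (y axis, each panel from 0) in heated libraries labelled smxl4 smxl5 (s4 s5, red) and Col-0 (dark), with circles, triangles and squares for replicates 1, 2 and 3 and a line at the mean of 3. Iron genes (top row) and the enzyme genes CHS, DFR and LDOX (middle row) lie above Col-0, and MYBL2 and the genes of the bottom row below it. The groups do not overlap in any panel. For all panels except CHS, MYBL2 and AHA3, this was a condition for naming the gene.

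Low-sugar and dark-induced genes were lower in the libraries labelled smxl4 smxl5. These genes are repressed by sugar and induced by starvation or darkness, in part through the kinase SnRK1 and bZIP factors. Of 21 measured, 18 fell and 2 rose, with a median log2 change of −1.02, and the groups did not overlap for 19. The count was 17 lower without Col-0 heat replicate 2 and also 17 in the 6-library fit.

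SEN1, a dark-induced senescence marker, had 96.3, 34.9 and 47.5 FPKM, against 485, 515 and 364 FPKM in Col-0 (a log2 change of −3.03 ± 0.30 SE, adjusted p = 1.34e-07). ASN1, an asparagine synthetase that carries nitrogen in starved tissue, had 51.9, 23.4 and 31.6 FPKM, against 277, 285 and 218 FPKM in Col-0 (a log2 change of −2.90, adjusted p = 5.66e-07). In both genes Col-0 heat replicate 2 stood with the other Col-0 libraries, not between the groups. bZIP1, a starvation-response factor, had 12.4, 11 and 9.22 FPKM, against 34.4, 25.1 and 38.1 FPKM in Col-0 (a log2 change of −1.49, adjusted p = 1.64e-08). Genes of amino acid catabolism fell with it. GDH1 and GDH2, glutamate dehydrogenases, fell by 0.90 and 1.16, and MCCA, of leucine breakdown, fell by 1.49. The SnRK1 subunit gene AKINBETA1 fell by 1.46 and the class II trehalose phosphate synthase genes TPS8, TPS9, TPS10 and TPS11 by 0.73 to 1.38. The 2 that rose were DIN2, at a level below 1 FPKM, and DIN9, by 0.36 and 0.43; neither was called in the 6-library fit, and 1 gene rose when any library other than Col-0 heat replicate 2 was left out. STP1, a sugar-repressed monosaccharide importer that is not a member of the list, had 24, 15.3 and 19.9 FPKM, against 240, 144 and 161 FPKM in Col-0 (a log2 change of −3.13, adjusted p = 1.07e-07).

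Starch genes went both ways. GBSS1, granule-bound starch synthase, had 66.9, 89.4 and 139 FPKM, against 22.7, 40.9 and 25.5 FPKM in Col-0 (a log2 change of 1.68, adjusted p = 1.27e-06). APL3, a large subunit of ADP-glucose pyrophosphorylase, rose by 1.31, and GPT2, the plastid glucose-6-phosphate translocator, by 1.29. The enzymes of starch breakdown were lower. SEX1, the glucan water dikinase that opens the granule, had 40.6, 35.8 and 42.4 FPKM, against 107, 49.9 and 106 FPKM in Col-0 (a log2 change of −1.05, adjusted p = 5.4e-05). PHS2, PHS1, DPE1, DPE2, ISA3, SEX4 and PWD fell by 0.35 to 1.02, but PHS2, ISA3, SEX4 and PWD did not pass in the 6-library fit (adjusted p from 0.0789 to 0.207). For SEX1 and PHS2, Col-0 heat replicate 2 lay close to the libraries labelled smxl4 smxl5. The sucrose synthase genes SUS1 and SUS4 fell by 1.08 and 1.15. In all 6 of 22 starch and sucrose genes rose and 11 fell (5 and 6 in the 6-library fit).

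Of 26 phloem genes 10 fell and 3 rose. AHA3 (listed as HA3), the proton pump of companion cells, had 8.69, 10.1 and 11.4 FPKM, against 27.5, 28.4 and 27.5 FPKM in Col-0 (a log2 change of −1.39 ± 0.07 SE, adjusted p = 4.94e-12). SUC2, the sucrose importer that loads the phloem and is driven by that pump, had 17.7, 20.9 and 28.4 FPKM, against 59.3, 43.5 and 47.6 FPKM in Col-0 (a log2 change of −1.15, adjusted p = 1.27e-06). The groups were well apart in both, and Col-0 heat replicate 2 did not stand apart for AHA3.

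SEOR1 and SEOa, which form the protein filaments of sieve elements, fell by 0.77 and 0.97, and the phloem lectin gene PP2-A1 by 0.58. APL, the factor that specifies phloem identity, had 11.5, 10.9 and 10.9 FPKM, against 16.5, 15.1 and 14.7 FPKM in Col-0 (a log2 change of −0.44, adjusted p = 0.000106). NAC086, DOF2.4, FTIP1 and NHL26 fell by 0.31 to 0.65, FTIP1 with an adjusted p of 0.103 in the 6-library fit. CalS7, the callose synthase of sieve elements, and SULTR1;3, a sulphate transporter of companion cells, did not pass (log2 changes of −0.16 and 0.13, adjusted p = 0.135 and 0.401). OPS and BRX, which promote sieve element differentiation, rose by 0.38 and 0.47, BRX with overlapping groups and an adjusted p of 0.111 in the 6-library fit, and CLE41, a peptide made in phloem that acts on the cambium, by 0.58. BAM3, CVP2, MAKR5 and NAC045 did not pass (adjusted p from 0.15 to 0.506), nor did the sucrose exporter genes SWEET11 and SWEET12 (adjusted p = 0.238 and 0.44), although the test of the difference between heat and control passed for both (−0.49 and −0.85, adjusted p = 0.0282 and 0.00463). The summed level of the 26 genes was 408 to 419 FPKM in the libraries labelled smxl4 smxl5 and 500 to 532 FPKM in Col-0. Of 10 xylem genes 7 fell, by 0.21 to 0.49, among them the vessel protease genes XCP1 and XCP2 and the secondary wall cellulose synthase genes IRX1, IRX3 and CESA4. The xylem count was 3 in the 6-library fit, 3 without Col-0 heat replicate 1 and 4 without smxl4 smxl5 heat replicate 1.

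Most day and evening clock genes were lower in the libraries labelled smxl4 smxl5, and morning clock genes went both ways. The plant clock is a loop in which the morning factors CCA1 and LHY repress evening genes, the PRR proteins repress CCA1 and LHY in turn through the day, and the evening complex of ELF3, ELF4 and LUX closes the cycle. Of 10 morning genes 5 rose and 2 fell (median log2 change 0.45; 3 and 3 in the 6-library fit), and of 12 day and evening genes 11 fell and 0 rose (median −0.85; 1 rose without smxl4 smxl5 heat replicate 1). CDF1 was the one member of the second list that did not fall (a log2 change of 0.47, adjusted p = 0.133).

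LHY had 10.9, 17.4 and 24.8 FPKM in the libraries labelled smxl4 smxl5, against 0.987, 4.61 and 1.15 FPKM in Col-0 (a log2 change of 2.63 ± 0.26 SE, adjusted p = 1.5e-07). CCA1 had 17.3, 23.4 and 34.2 FPKM, against 11, 15.2 and 11.2 FPKM in Col-0 (a log2 change of 0.91, adjusted p = 0.00202). RVE8, which activates evening genes, had 12.1, 18.5 and 25.6 FPKM, against 4.14, 6.06 and 4.87 FPKM in Col-0 (a log2 change of 1.67, adjusted p = 5.66e-07). In all 3, replicate 1 was the lowest and replicate 3 the highest of the libraries labelled smxl4 smxl5, and Col-0 heat replicate 2 was the highest of its group. The coactivator genes LNK1 and LNK2 rose by 0.49 and 0.40 (adjusted p = 0.0274 and 0.00318), though not in the 6-library fit (0.0554 and 0.0548), and LNK1 not without Col-0 heat replicate 2 (0.0708). LNK3 had 21.1, 20.5 and 22.3 FPKM, against 10.5, 22.3 and 13.6 FPKM in Col-0 (adjusted p = 0.0949, or 0.0092 without Col-0 heat replicate 2). RVE7 (listed as EPR1) and RVE1 fell by 1.02 and 0.61 (RVE1 with an adjusted p of 0.0542 without Col-0 heat replicate 3), and RVE2 did not pass (adjusted p = 0.184).

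The PRR genes follow one another through the day. PRR9, the earliest, had 2.65, 1.98 and 1.77 FPKM, against 3.53, 4.53 and 4.03 FPKM in Col-0 (adjusted p = 0.0774, or 0.0177 in the 6-library fit). PRR7 had 27.9, 23.3 and 21.1 FPKM, against 58.3, 45.9 and 61.0 FPKM in Col-0 (a log2 change of −1.16, adjusted p = 2.68e-09). PRR5 had 3.45, 2.14 and 2.97 FPKM, against 27.5, 5.55 and 26.1 FPKM in Col-0 (a log2 change of −2.17 ± 0.31 SE, adjusted p = 1.42e-05). For PRR5 the Col-0 libraries themselves were far apart, and without replicate 2 its log2 change was −2.87. TOC1, the last of the series, fell by 0.81.

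GI, an evening gene that links the clock to flowering, had 8.65, 7.69 and 7.07 FPKM, against 23.5, 13.5 and 25.6 FPKM in Col-0 (a log2 change of −1.27, adjusted p = 1.45e-07). FKF1, its light-sensing partner, had 0.43, 0.539 and 0.436 FPKM, against 3.91, 0.847 and 3.33 FPKM in Col-0 (a log2 change of −1.21, adjusted p = 0.000131). ELF4 had 2.97, 2.48 and 1.79 FPKM, against 17.8, 2.54 and 11.9 FPKM in Col-0 (a log2 change of −1.49, adjusted p = 0.00103). Here the groups overlapped, because Col-0 heat replicate 2 stood at the level of the libraries labelled smxl4 smxl5, and ELF4 did not pass in the 6-library fit (adjusted p = 0.0995). ELF3, LUX (listed as PCL1), its relative BOA, ZTL and CHE (listed as TCP11) fell by 0.28 to 0.88, though ELF3, ZTL and CHE not in the 6-library fit (adjusted p from 0.0757 to 0.125). In the 6-library fit, 5 of the 10 day and evening genes kept in that fit fell, and 11 of 12 fell without Col-0 heat replicate 2. Sampling time within the day is not given in the labels, and its part in these differences was not tested.

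**Figure D3:**
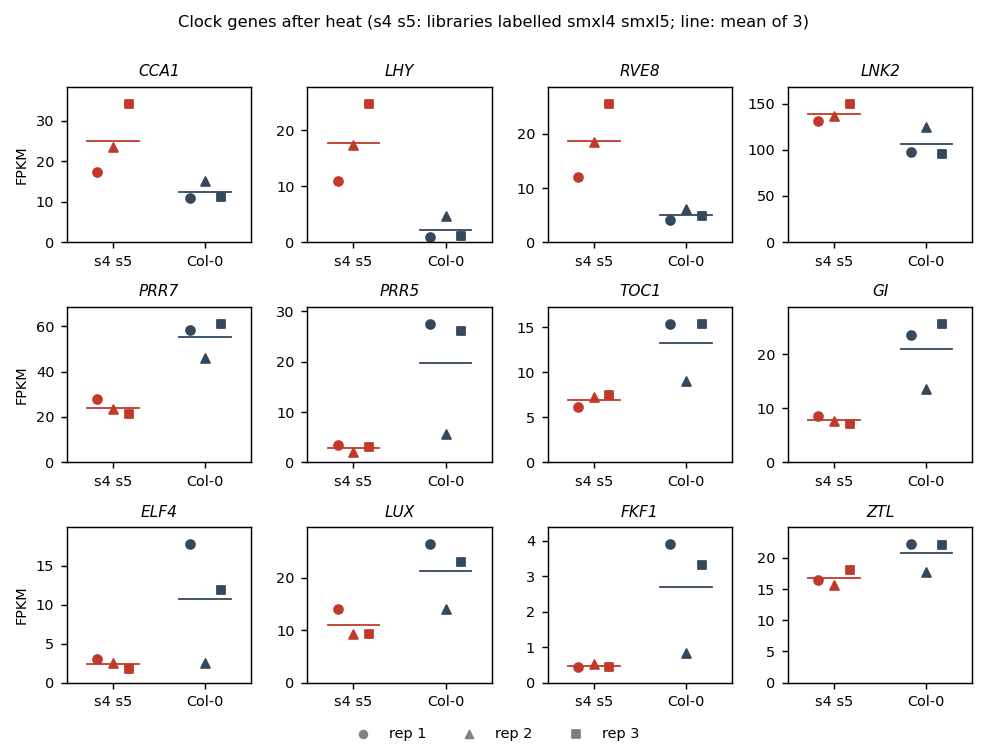
FPKM per library (y axis, each panel from 0) of 12 clock genes in heated libraries labelled smxl4 smxl5 (s4 s5, red) and Col-0 (dark); circles, triangles and squares are replicates 1, 2 and 3 and the line is the mean of 3. CCA1, LHY, RVE8 and LNK2 lie higher and the other 8 lower in the libraries labelled smxl4 smxl5, and the triangle of Col-0 lies close to or at the level of the other genotype in PRR5, ELF4 and FKF1. The morning genes RVE7 and RVE1, which fell, are not shown.

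HSFA2 did not pass. It had 386, 426 and 274 FPKM in the libraries labelled smxl4 smxl5, against 256, 509 and 291 FPKM in Col-0 (a log2 change of 0.08 ± 0.24 SE, adjusted p = 0.826). The groups overlapped, and without Col-0 heat replicate 2 the log2 change was 0.38 (adjusted p = 0.205). Small heat shock proteins, which hold unfolding proteins in solution, summed to 3341, 3513 and 2054 FPKM over 18 genes in the libraries labelled smxl4 smxl5, against 2103, 4752 and 2269 FPKM in Col-0. One library in each group thus departed from its group, replicate 3 downward in the libraries labelled smxl4 smxl5 and replicate 2 upward in Col-0. Of the 18 genes 2 rose and 0 fell (median log2 change 0.11, or 0.56 without Col-0 heat replicate 2, where again 2 rose; 1 rose without Col-0 heat replicate 1, Col-0 heat replicate 3 or smxl4 smxl5 heat replicate 2, and 0 without smxl4 smxl5 heat replicate 1), and the other 16 had log2 changes from −0.22 to 0.27. The 2 that rose, AT4G21870 and AT5G47600, are annotated only as HSP20-like; AT4G21870 had 163, 128 and 103 FPKM, against 74.5, 84.1 and 59.3 FPKM in Col-0 (adjusted p = 0.0143, or 0.0761 without smxl4 smxl5 heat replicate 1). Class I members resemble one another closely, and the authors' counting may have split their fragments.

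Large chaperones were higher in part. Of 24 genes 13 rose and 0 fell, with a median log2 change of 0.46 (15 rose, with a median of 0.60, without Col-0 heat replicate 2). Their summed level was 6860, 7656 and 6089 FPKM in the libraries labelled smxl4 smxl5, against 3796, 6363 and 4531 FPKM in Col-0, with overlap. Sorted by compartment after the values were seen, 12 of 14 genes for plastid or mitochondrial chaperones rose (median 0.71), and 1 of 10 for cytosolic ones did (median 0.16). Without Col-0 heat replicate 2 these counts were 13 and 2, and in the 6-library fit 10 and 1. The medians by compartment were computed with all libraries only. cpHsc70-2, an HSP70 of the plastid stroma, had 241, 302 and 266 FPKM, against 78.9, 114 and 102 FPKM in Col-0 (a log2 change of 1.45 ± 0.12 SE, adjusted p = 8.17e-09). CR88, the plastid HSP90, had 174, 236 and 174 FPKM, against 61.2, 99.4 and 90.8 FPKM in Col-0 (a log2 change of 1.22, adjusted p = 2.6e-05). CPN60A and CPN60B, subunits of the plastid chaperonin that folds Rubisco, rose by 0.84 and 0.77, the co-chaperonin gene CPN20 by 0.71, and the plastid disaggregase gene CLPB3 by 0.80 (adjusted p = 0.0578 in the 6-library fit). In mitochondria, mtHsc70-1 and HSP60 rose by 0.71 and 0.62. The cytosolic member that rose was HSC70-1, by 0.44 (adjusted p = 0.00184, or 0.0645 in the 6-library fit). The 1 cytosolic member called in the 6-library fit was instead Hsp70-2 (adjusted p = 0.0404, but 0.0745 with all libraries). The strongly heat-induced HSP101, HSP90.1 and HSP70-5 had log2 changes of −0.06, −0.16 and −0.03 (adjusted p = 0.925, 0.713 and 0.973). Col-0 heat replicate 2 was the highest Col-0 library in 21 of the 24 large chaperone genes. Without it the changes of HSP101, HSP90.1 and HSP70-5 were 0.46, 0.22 and 0.54 (adjusted p = 0.261, 0.577 and 0.279). Without heat, 9 of the 24 were higher and 0 lower.

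**Figure D4:**
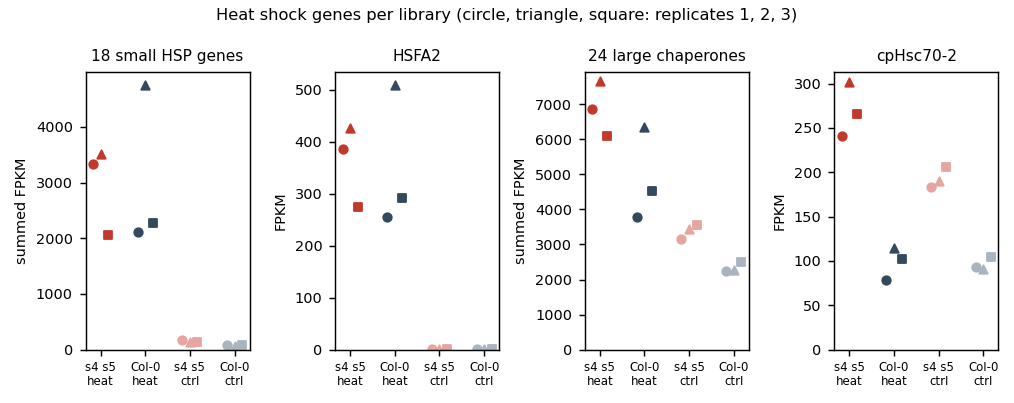
Level per library (y axes from 0) of the summed small heat shock protein genes, HSFA2, the summed large chaperones and cpHsc70-2 in the heated and control (ctrl) libraries labelled smxl4 smxl5 (s4 s5) and of Col-0; circles, triangles and squares are replicates 1, 2 and 3. The heated groups overlap for the small heat shock proteins and HSFA2, where the Col-0 triangle is highest. They also overlap for the summed large chaperones, at 6089 to 7656 FPKM in the libraries labelled smxl4 smxl5 and 3796 to 6363 FPKM in Col-0. For cpHsc70-2 they are apart, with 241 to 302 FPKM in the libraries labelled smxl4 smxl5 and 78.9 to 114 FPKM in Col-0.

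Of the 19 heat shock factor genes kept, 1 rose and 5 fell, beside 19.1% and 17.2% of all genes. The count of risen factors was 2 without Col-0 heat replicate 2, and 0 without Col-0 or smxl4 smxl5 heat replicate 1. HSFA1B (listed as HSF3), one of the factors that start the response, had 8.57, 8.38 and 8.29 FPKM, against 12.9, 11.5 and 15.6 FPKM in Col-0 (a log2 change of −0.60, adjusted p = 3.51e-06), and HSFA1D, its relative, rose by 0.33 (adjusted p = 0.00888, or 0.119 in the 6-library fit). HSFA8 had 0.865, 0.446 and 0.646 FPKM, against 3.84, 1.72 and 4.29 FPKM in Col-0 (a log2 change of −1.32, adjusted p = 6.61e-05), and HSFA3 fell by 0.58. The count of lower factors was 3 in the 6-library fit, and 3 without Col-0 heat replicate 1, Col-0 heat replicate 3, or smxl4 smxl5 heat replicate 1 or 2. Among 16 HSFA2 targets and heat memory genes 3 rose and 3 fell, close to the shares over all genes (19.1% higher and 17.2% lower). ROF1, a peptidyl-prolyl isomerase that binds HSP90, rose by 0.45 and BOB1, a small chaperone of the NudC family, by 0.51 (adjusted p = 0.00342 and 0.000983); ROF1 did not pass in the 6-library fit (0.0679), and the count of risen genes there was 1. XTR6, a xyloglucan-modifying enzyme, had 6.73, 10 and 17.3 FPKM, against 39.7, 21.2 and 25.7 FPKM in Col-0 (a log2 change of −1.32, adjusted p = 0.00226), and the stress factor gene DREB2A fell by 1.13.

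Enzymes that remove reactive oxygen differed by member. The catalase genes CAT1 and CAT3 fell by 1.1 and 1.01 and CAT2 rose by 0.57. CAT3 had 1289, 1000 and 893 FPKM, against 2316, 1628 and 2487 FPKM in Col-0 (adjusted p = 3.43e-06), and CAT2 had 1389, 1669 and 1806 FPKM, against 1052, 1294 and 945 FPKM in Col-0. APX1, the cytosolic ascorbate peroxidase, rose by 0.51 (adjusted p = 0.000443). In all, 5 of 13 rose and 4 fell, 2 and 3 in the 6-library fit, and 3 rose without Col-0 heat replicate 1, Col-0 heat replicate 3, or smxl4 smxl5 heat replicate 2 or 3. In the endoplasmic reticulum, the lectin chaperone gene CNX1 rose by 0.47 and the stress sensor gene BZIP28 fell by 0.34. Of 13 folding genes 3 were higher and 3 lower, beside 19.1% and 17.2% of all genes. In the 6-library fit, and without Col-0 heat replicate 1, Col-0 heat replicate 3 or smxl4 smxl5 heat replicate 2, 1 was lower.

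The list of cold and early stress factor genes holds the CBF factors, which drive cold acclimation, and ERF, ZAT and WRKY factors that respond within minutes to many stresses. Of 14 genes 7 fell and 0 rose (median log2 change −1.10); 10 fell without Col-0 heat replicate 2, 4 without Col-0 heat replicate 1 and 4 without replicate 3. Their summed level was 76.4, 85.5 and 67.4 FPKM in the libraries labelled smxl4 smxl5, against 292, 134 and 243 FPKM in Col-0.

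ERF6 had 5.47, 4.43 and 5.91 FPKM, against 35.1, 8.76 and 34.1 FPKM in Col-0 (a log2 change of −1.89, adjusted p = 0.00023). ERF104, a factor activated by a defence kinase, had 25.8, 30.8 and 24.3 FPKM, against 95.3, 59.4 and 62.1 FPKM in Col-0 (a log2 change of −1.36, adjusted p = 0.000453). CBF2 had 0.229, 0.601 and 0.609 FPKM, against 9.41, 0.926 and 7.5 FPKM in Col-0 (adjusted p = 0.0137). In ERF6 and CBF2, Col-0 heat replicate 2 stood near the libraries labelled smxl4 smxl5, whereas in ERF104 it matched replicate 3. ERF105 had 4.02, 3.17 and 2.43 FPKM, against 32.4, 3.82 and 27.4 FPKM in Col-0, where the groups overlapped (adjusted p = 0.00349, or 0.0766 in the 6-library fit). Among 26 ABA and cold protective genes 10 fell and 1 rose (5 and 0 in the 6-library fit; 0 rose without smxl4 smxl5 heat replicate 3, and 6 fell without Col-0 heat replicate 1 or smxl4 smxl5 heat replicate 2). COR47, a dehydrin gene, had 179, 155 and 169 FPKM, against 457, 264 and 358 FPKM in Col-0 (a log2 change of −1.06, adjusted p = 0.000102), and ABF1, a factor of the ABA response, fell by 1.35. Among 13 genes of salicylate signalling and defence, 3 fell and 0 rose, beside 17.2% lower and 19.1% higher of all genes. Without Col-0 heat replicate 2, 6 of them fell. WRKY70 had 2.96, 3.59 and 5.77 FPKM, against 33.8, 9.69 and 18.2 FPKM in Col-0 (adjusted p = 0.000206). Without heat all 14 cold and early stress genes were lower. Col-0 heat replicate 2 was the lowest Col-0 library in 13 of these 14 genes, as in 12 of 12 day and evening clock genes, and the part of the clock in these values was not tested.

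Of 39 photosynthesis genes measured 18 fell and 6 rose (median log2 change −0.25); 7 and 3 did so in the 6-library fit, 12 fell without Col-0 heat replicate 1 or smxl4 smxl5 heat replicate 2, and 3 rose without Col-0 heat replicate 3. Apart from RbcX1, the 17 that fell were genes of the antenna and the photosystems, with log2 changes from −0.25 to −0.62. PSAF, a photosystem I subunit, had 4339, 3843 and 3505 FPKM, against 6732, 5641 and 5545 FPKM in Col-0 (a log2 change of −0.62, adjusted p = 0.000286). Antenna genes have close copies, and fragments may be split among them. The 6 that rose were RCA, the Rubisco activase gene, by 0.38, the aldolase gene FBA2 by 0.57, the Calvin cycle dehydrogenase genes GAPA and GAPB by 0.26 and 0.32, RBCS1B and NPQ4; RCA, GAPA and GAPB did not pass in the 6-library fit (adjusted p = 0.0885, 0.209 and 0.089). RBCS2B, RBCS3B and PRK, of the same cycle, did not pass (adjusted p = 0.108, 0.922 and 0.359). RBCS1B, a Rubisco small subunit, had a log2 change of 1.54, but its close copy RBCS1A is listed at 0 in all 6 heated libraries, so its value is uncertain. NPQ4, the PsbS protein of heat dissipation, had 2121, 2228 and 2465 FPKM, against 1221, 1573 and 1146 FPKM in Col-0 (a log2 change of 0.80, adjusted p = 2.13e-06).

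Of 26 cell cycle genes 7 rose and 0 fell (median log2 change 0.05), beside 19.1% higher and 17.2% lower of all genes. The 7 were MCM2 to MCM6, subunits of the replicative helicase, the licensing factor gene CDT1A and TSO2, a subunit of ribonucleotide reductase. TSO2 had 75.2, 82.7 and 77.9 FPKM, against 40.4, 46.0 and 49.9 FPKM in Col-0 (a log2 change of 0.78, adjusted p = 0.000117). MCM2 had 8.66, 9.78 and 10.3 FPKM, against 5.74, 6.24 and 7.16 FPKM in Col-0 (a log2 change of 0.52, adjusted p = 0.00769). The count was 4 in the 6-library fit (beside 11.2% of all genes there), 3 without Col-0 heat replicate 1 and 4 without smxl4 smxl5 heat replicate 3. Without heat 0 of the 26 were higher and 4 were lower by limma's adjusted p. The test of the difference between these changes passed for CDC6 alone of the 26 (difference 0.78, adjusted p = 0.0368), a replication licensing gene that was not called after heat.

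Elongation growth genes went both ways, with 7 of 24 higher and 6 lower, beside 19.1% and 17.2% of all genes. GA20OX1, of gibberellin synthesis, had 3.71, 4.49 and 5.19 FPKM, against 1.27, 1.84 and 1.2 FPKM in Col-0 (a log2 change of 1.16, adjusted p = 1.15e-05), and BR6OX2, of brassinosteroid synthesis, rose by 0.96. PIF4, the growth factor gene of warm temperature responses, had 113, 114 and 143 FPKM, against 226, 164 and 192 FPKM in Col-0 (a log2 change of −0.64, adjusted p = 0.0016). The auxin response gene IAA29 rose by 1.59, and the touch-induced wall enzyme gene TCH4 fell by 2.03, with overlapping groups (adjusted p = 0.00124, or 0.0576 in the 6-library fit). In the strigolactone and karrikin pathway, 1 of 9 genes rose (0 to 2 when single libraries were left out, and 0 without Col-0 heat replicate 2) and 5 fell (2 fell in the 6-library fit, and 3 without Col-0 heat replicate 1 or smxl4 smxl5 heat replicate 1). KAI2, the karrikin receptor, had 24.5, 28.4 and 32.5 FPKM, against 50.4, 39.8 and 45.1 FPKM in Col-0 (a log2 change of −0.65, adjusted p = 0.000385). MAX2, the F-box protein of both pathways, fell by 0.34 (adjusted p = 0.00931, or 0.072 in the 6-library fit). Nitrate genes gave 3 higher and 3 lower of 12, beside 19.1% and 17.2% of all genes. HRS1, a nitrate-induced repressor, fell by 0.70. Seed storage transcripts were near 0, with a summed level over 9 genes of 1.43, 2.2 and 5.85 FPKM in the libraries labelled smxl4 smxl5 and 0.258, 0.717 and 0.0803 FPKM in Col-0. Of the 3 kept, SESA2 rose (adjusted p = 0.0455, or 0.0859 without Col-0 heat replicate 2); it was called without smxl4 smxl5 heat replicate 1 and lost when any other heated library was left out.

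The difference after heat was then set beside the difference without heat, each with its own Col-0 libraries. Without heat 3284 genes were higher (15.3%) and 3192 lower (14.8%), 30.1% in all, in the libraries labelled smxl4 smxl5. Of the genes called after heat, 1953 higher ones (47.4%) and 2045 lower ones (55.3%) were called in the same direction without heat, which was 59.5% and 64.1% of those called without heat. Another 7 and 52 were called in opposite directions. A test of the difference between the 2 changes called 448 genes (2.08%), of which 156 (0.725%) were more positive after heat and 292 (1.36%) more negative. This count moved with single libraries. Leaving out control replicate 1, 2 or 3 of the libraries labelled smxl4 smxl5 gave 197, 221 or 261, and leaving out control replicate 1 or 2 of Col-0 gave 152 or 213. It was 154 without smxl4 smxl5 heat replicate 2, 263 without Col-0 heat replicate 1 and 754 without Col-0 heat replicate 3.

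Of the 113 genes in the plot of both changes, chosen by size of change and by list, 8 passed this test; SWEET11, SWEET12 and CDC6, given above, are not among them. AHA3 was lower in both conditions but by more after heat. Without heat it had 23.2, 22.5 and 20.7 FPKM in the libraries labelled smxl4 smxl5, against 34.2, 35.0 and 32.7 FPKM in Col-0, a log2 change of −0.60 beside −1.39 after heat (difference −0.79 ± 0.10 SE, adjusted p = 0.000353). ASN1 had 22.0, 25.4 and 18.5 FPKM without heat, against 32.2, 43.9 and 44.4 FPKM in Col-0 (difference −2.06, adjusted p = 0.0192). Among the 21 low-sugar genes the difference was negative and passed for 6 and positive for 0. SMXL4 and SMXL5 changed by −1.16 and −1.55 between the comparisons (adjusted p = 0.000612 and 7.87e-08). For iron uptake, anthocyanin enzymes and the day and evening clock, 0 members passed the test of the difference in either direction, and the differences of IRT1, DFR and PRR5 were −1.06, −0.65 and 0.83 (adjusted p = 0.385, 0.602 and 0.352). Among the iron status regulators and stores FRO3 alone passed. Its log2 change was 1.41 without heat and 0.36 after it (difference −1.04, adjusted p = 0.00646).

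**Figure D5:**
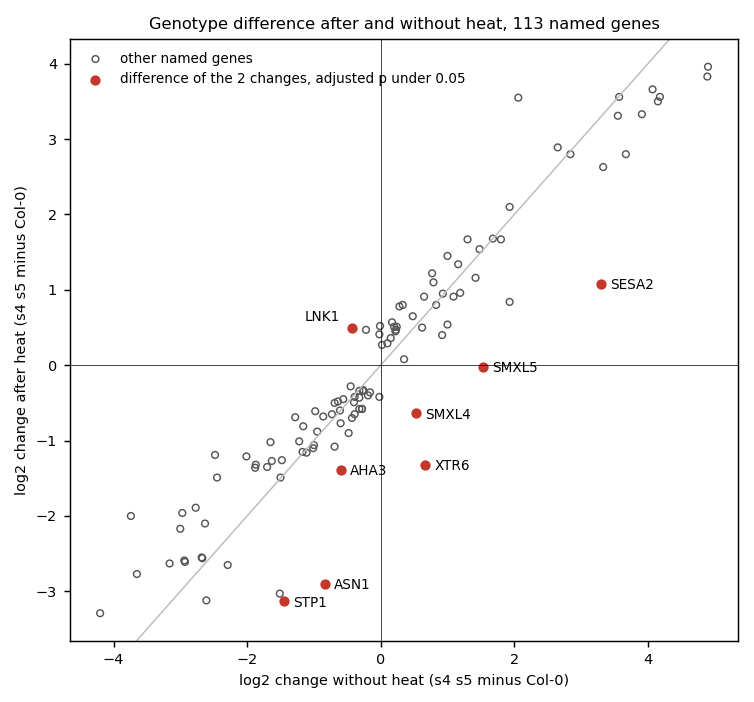
Log2 change without heat (x axis) and after heat (y axis), both for the libraries labelled smxl4 smxl5 minus Col-0 on the log2(FPKM + 1) scale, of 113 genes (the 12 largest rises and 12 largest falls, the clock genes, the SMXL4, SMXL5 and HSFA2 genes and the leading members of each list); the grey line marks equal changes. Most points lie near the line, and the 8 red points, among them SMXL4, SMXL5, ASN1, STP1 and AHA3, passed an adjusted p of 0.05 in the test of the difference of the 2 changes.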

How the data were processed

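mRNA was sequenced from seedlings of 5 genotypes with and without heat, 3 libraries in each of 10 groups. Groups and replicate numbers come from the labels, which do not name separate cultures for libraries sharing a group; p-values therefore describe only the spread among these libraries, and that spread may be technical. Per the labels' protocols, RNA was extracted with Trizol and libraries were made by an Illumina mRNA-seq protocol. The authors deposited 1 FPKM value per gene and library for 38088 genes; the unit was read from the values, and Bowtie is named without a version in the submitters' processing notes. Which counter, build or annotation was used is not given in the sources used here, so no coordinates or sequences are printed. Names are those of the deposited table or of RefSeq (TAIR10.1), which held 37792 of the IDs (99.2%).

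Values were taken as log2(FPKM + 1), which understates changes of low genes, and 21531 genes reaching 1 FPKM in 3 or more libraries were analysed. limma 3.58.1 in R 4.3.3 was fitted to all 30 libraries with 1 mean per group and an intensity trend, and p-values were adjusted by Benjamini-Hochberg over all genes of a comparison; every adjusted p is limma's. Log2 changes are heated libraries labelled smxl4 smxl5 minus Col-0, and folds are ratios of mean FPKM. Sums and ranges were computed with Python 3.11.15. The fit was tested on simulated data. Alternatives were another pseudocount (0.1), other filters and scalings, no intensity trend, only the groups compared, a replicate block, and each library left out; leaving out Col-0 heat replicate 2 within the fit to only the groups compared was added after the data were seen.

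The genes named were SMXL4, SMXL5, HSFA2, all clock members, the 12 largest rises and 12 largest falls (called with and without Col-0 heat replicate 2, at least 5 FPKM in the higher group, no overlap between groups, above 0 in both groups, with a symbol in the deposited table or RefSeq), and up to 3 called members of each list with the smallest adjusted p; other list members are named to account for a list's count and were chosen with their values known. The comparison, the members and the 27 lists (479 genes) were chosen with earlier results of these data known, and no list was given a test of its own. RBCS1A and CAB1 are listed at 0 in all 6 heated libraries, and genes with near-identical copies are left out or named as uncertain.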

Additional observations from a re-analysis of the deposited data

Results flagged for a closer look

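The 8 genes below had a change between the libraries labelled smxl4 smxl5 and Col-0 that differed after heat from that without heat, by limma's test of the difference over all genes. SMXL4 had a difference of −1.16 (adjusted p = 0.000612) and SMXL5 of −1.55 (adjusted p = 7.87e-08). Both were above Col-0 without heat, and after it SMXL4 was lower and SMXL5 was not called; both differences passed under all 18 alternatives tried. AHA3 had −0.79 (adjusted p = 0.000353) and passed under all 19.

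The other 5 depended on single libraries or settings. ASN1 had a difference of −2.06 (adjusted p = 0.0192) and was lost in 3 of 19 alternatives, with adjusted p from 0.00796 to 0.0724. XTR6 had −1.99 (adjusted p = 0.0195), with 44.5, 40.2 and 28.4 FPKM without heat in the libraries labelled smxl4 smxl5 against 20.0, 18.1 and 33.3 FPKM in Col-0, and was lost in 6 of 19. STP1 had −1.68 (adjusted p = 0.0459) and was lost in 11 of 19. LNK1 had 0.93 (adjusted p = 0.046) and was lost in 12 of 19. SESA2, a seed storage albumin gene, had −2.22 (adjusted p = 0.0488), with 30.3, 5.29 and 4.73 FPKM without heat in the libraries labelled smxl4 smxl5 against 0, 0.088 and 0.0871 FPKM in Col-0, and was lost in 14 of 18.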

How the results depend on the processing

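When only the 6 heated libraries were fitted, 2145 genes were higher and 1922 lower, and with Col-0 heat replicate 2 also left out 2500 and 2306. The other alternatives left both counts within 1.5 times of 4120 and 3699, and leaving out single libraries gave 2864 to 4326 higher and 2635 to 3802 lower. The count of genes whose change differed after heat ranged from 152 to 754 (of 448) when single libraries were left out. Deviations across genes of same-numbered libraries of the 2 heated groups correlated at −0.061, 0.005 and −0.018, and those of other pairs at −0.062 to 0.089. The labels do not say whether equal numbers mark a shared batch, and with 3 libraries per group these values cannot settle it. A fit with the replicate number as a block gave 4042 higher, 3657 lower and 409 with a different change; of the calls of named genes after heat it lost SESA2 (adjusted p = 0.055). Of 106 named genes called after heat, 91 of the 103 refitted remained called with the 6 heated libraries alone, 104 of 106 without Col-0 heat replicate 2 and 98 of 106 without Col-0 heat replicate 1, and 0 changed direction under any alternative in which they were called. The 24 largest rises and falls had to be called without Col-0 heat replicate 2 to be named, and most others had the smallest adjusted p of a list. These counts therefore do not hold for genes at large. Of all 7819 genes called after heat, 6977 (89.2%) were called in the same direction without Col-0 heat replicate 2. The causes of lost calls were not tested. Depth limits genes below about 1 FPKM, such as FKF1, BOA and PAP1, to few fragments, and no file gives counts from which an interval could be computed.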
